A study of Mus musculus with 188 samples.

Results

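Brain slices given the hemoglobin-haptoglobin complex (HbHp) were compared with slices given haptoglobin (Hp) without hemoglobin, both at 400 µM and for 24 h. Of the 188 libraries of the series, 10 entered this comparison, namely 4 HbHp libraries (F1, F2, F3 and M3) and 6 Hp libraries (F1, F2, F3, M1, M2 and M3). They were all the libraries of the second culture round (E2 in the library name) in which the title, the treatment label and the library name gave the same agent, dose and time. The 6 Hp libraries of the first round at this dose and time were left out. All 10 libraries carry 1 batch label. The code letters F and M matched the level of Y-linked genes in all 10, so the groups were not balanced for sex. The comparison asks what hemoglobin held by haptoglobin changes in brain tissue beyond haptoglobin itself at the same dose.

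The tissue was organotypic brain slice culture, that is, coronal slices of 150 µm from perfused young adult C57BL/6J mice, kept on membrane inserts at an air-liquid interface and treated on culture day 7. Perfusion removes most blood, so the slices hold the brain's own cells with no circulation and no new immune cells entering. Hemoglobin was purified from human blood and haptoglobin from human plasma (phenotype 1-1), so human proteins acted on mouse tissue, and the Hp group differs from the HbHp group in lacking hemoglobin. The labels' treatment text names 200 µM, whereas the titles, treatment labels and library names give 400 µM, which was used. Polyadenylated RNA of whole slices was sequenced and reads were counted per gene. Total counts ran from 25514616 to 28651527 in the HbHp libraries and from 24970704 to 38839614 in the Hp libraries. Nothing in the labels says that libraries of a group came from separate animals, so p-values measure the spread between these libraries, which may be technical. The design also holds 3 untreated libraries of the same round and time, 2 of them from another batch, and their levels are given as a background without a test.

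When red cells break, hemoglobin is released and its heme can leave the protein. Haptoglobin binds hemoglobin, keeps the heme in place, and delivers the complex to cells that express the receptor CD163. Inside the cell, heme oxygenase 1 (Hmox1) opens the heme ring into biliverdin, carbon monoxide and iron. Biliverdin reductases reduce biliverdin further, ferritin stores the iron and ferroportin exports it. Heme and oxidants also act on 2 transcription regulators. Heme displaces the repressor BACH1 from antioxidant genes, and oxidants release the activator NRF2, which then raises genes for glutathione, thioredoxin, NADPH and detoxification.

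HbHp raised many genes of this antioxidant programme, together with the heme carrier Slc48a1 and the iron exporter Slc40a1. Of 15341 genes tested, 61 (0.398%) had a Benjamini-Hochberg adjusted p under 0.05 by the quasi-likelihood test of edgeR, with 56 higher (0.365%) and 5 lower (0.0326%) in HbHp than in Hp. At an unadjusted p under 0.05 there were 1510 genes (9.84%), and DESeq2 called 258, with 184 raised and 74 lowered. A further criterion of a 1.5-fold change left 24 raised genes (0.156%) and 1 lowered gene (0.00652%). Of the 30 genes of the list of NRF2 targets, 21 rose and none fell, and the list's median log2 fold change was 0.54, beside -0.01 over all genes tested. In 26 of the 30, every HbHp library lay above every Hp library, which held for 1.79% of all genes tested. The list was chosen with earlier results of these data known, so its counts are a description and not a test. The 55 raised genes other than Hspa1b kept the groups apart without overlap. In 52 of the 56 every HbHp library also lay above all 3 untreated libraries. The share over all genes tested was not computed for this count. The 56 were picked as high in HbHp, so neither this count nor that of the 55 adds support of its own.

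The HbHp libraries did not lie at the same level in the raised genes, and what set them apart was not tested. M3 was the only HbHp library whose code has the letter M (3 of 6 in Hp), a letter that matched the level of Y-linked genes. The groups thus differed in their shares of male and female tissue. With that letter as a term, 22 genes passed, all raised, 13 of them NRF2 targets. Among the 56 raised genes, F1 was the highest of the 4 libraries in 47, and M3 was the lowest in 40. M3 also stood apart on the first principal component of log2 CPM (41.1% of the variance), at 37.5, whereas F1, F2 and F3 lay between -37.7 and -22.6 and the Hp libraries between -18.7 and 41.5. Its summed choroid plexus markers were 187 CPM, against 985 to 2209 CPM in F1, F2 and F3 and 169.6 to 1998 CPM in the Hp libraries. Without M3, 280 genes passed (151 raised and 129 lowered), among them all 61, and 24 of the 30 NRF2 targets rose. Without each of the other libraries the count fell, to 17, 11 and 22 genes without HbHp F1, F2 and F3, and to 21, 20, 33, 43, 23 and 21 genes without Hp F1, F2, F3, M1, M2 and M3. The list counts given below without M3 thus come from the only such fit in which more genes passed. In that fit every HbHp library had the letter F, whereas 3 of the 6 Hp libraries had the letter M. Whichever library was left out, 10 genes kept the call, namely Il19, Ephx1, Cat, Srxn1, Slc7a11, Gclm, Nqo1, Osgin1, Tkt and Cyb5a.

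**Figure D1:**
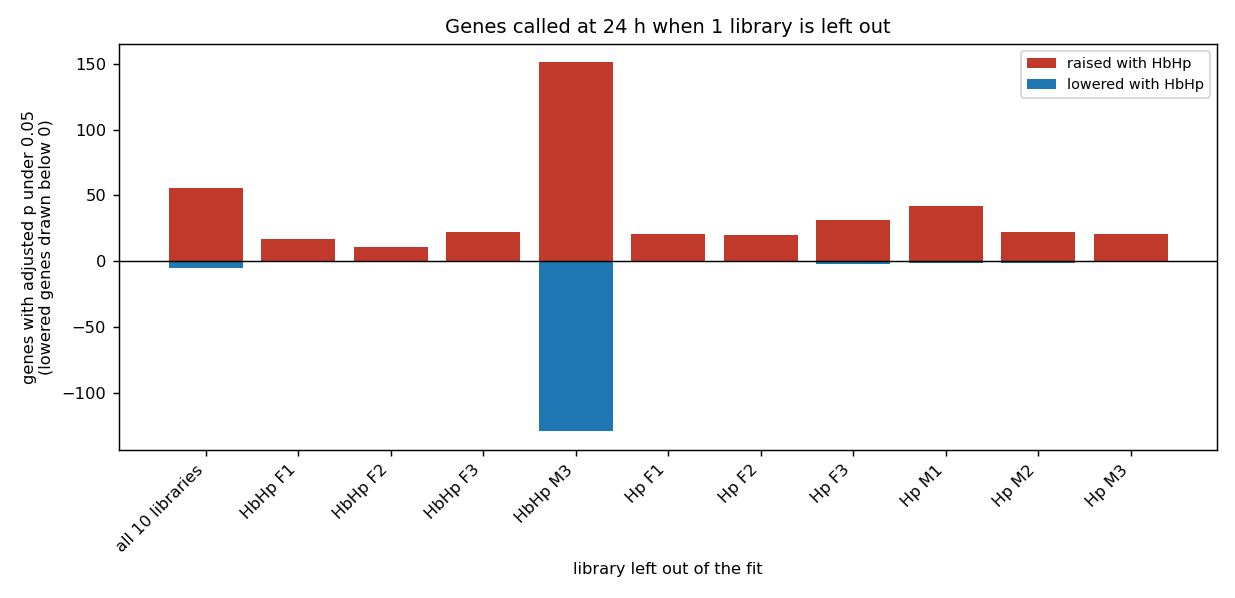
Number of genes at an adjusted p under 0.05, raised (upper bars) and lowered (lower bars) in HbHp against Hp, with all 10 libraries and with each library left out in turn. Leaving out HbHp M3 gives 151 raised and 129 lowered genes, against 56 and 5 with all 10 libraries.

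Glutathione synthesis begins with the uptake of cystine and its joining to glutamate. Slc7a11, the cystine transporter of system xc-, stood at 355, 275, 225 and 251 CPM (read counts scaled to library size) in HbHp libraries F1, F2, F3 and M3, and at 77.5 to 145 CPM (median 92.0) in Hp. The groups did not overlap (log2 fold change 1.44 ± 0.18 SE, adjusted p = 0.0102), and the untreated libraries ran from 58.6 to 221 CPM. Its partner subunit Slc3a2 rose as well (log2 fold change 0.50 ± 0.07 SE, adjusted p = 0.0138), from 231 CPM at the Hp median to 314 CPM at the HbHp median. Gclm, the modifier subunit of glutamate-cysteine ligase, reached 295, 245, 231 and 208 CPM in the HbHp libraries, against 93.9 to 129.5 CPM (median 119) in Hp. Every HbHp library exceeded the highest Hp and the highest untreated library (121 CPM), with a log2 fold change of 1.07 ± 0.11 (SE, adjusted p = 0.00459). The catalytic subunit Gclc changed less, by a log2 fold change of 0.47 ± 0.08 (SE, adjusted p = 0.0374). Its call held in 1 of the 10 fits that left out 1 library. Slc7a11 and Gclm were also the 2 genes that kept their call under every alternative run.

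Enzymes that use or renew glutathione and thioredoxin rose next to them. Gsr, which regenerates reduced glutathione, was at 125, 108, 97.8 and 98.3 CPM in HbHp and 63.7 to 78.8 CPM (median 70.4) in Hp, with a log2 fold change of 0.61 ± 0.08 (SE, adjusted p = 0.0102). The glutathione S-transferases Gsta3 (log2 fold change 1.43, adjusted p = 0.0359) and Gsta4 (0.53, adjusted p = 0.0141) rose, whereas Gstm1 (0.39, adjusted p = 0.305) and Gstp1 (0.37, adjusted p = 0.161) did not pass the test. These families have close copies between which reads can be split, so their values are uncertain. Of the 24 tested genes of glutathione synthesis and use, 6 rose and none fell (median log2 fold change 0.25).

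Srxn1, sulfiredoxin, which repairs overoxidised peroxiredoxins, stood at 486, 369.8, 338 and 302 CPM in the HbHp libraries and at 129 to 189 CPM (median 158) in Hp. No library of either group reached into the other (log2 fold change 1.21 ± 0.13 SE, adjusted p = 0.00459). Prdx1, a peroxiredoxin that removes hydrogen peroxide, was at 2401, 1756, 1633 and 1276 CPM against 832 to 1088 CPM (median 869.9). F1 was the highest and M3 the lowest, still above every Hp library (log2 fold change 0.94 ± 0.15 SE, adjusted p = 0.0257). Txnrd1, the cytosolic thioredoxin reductase, was at 479, 419, 374 and 387 CPM against 249.7 to 316 CPM (median 282), with a log2 fold change of 0.56 ± 0.08 (SE, adjusted p = 0.0224), and thioredoxin itself, Txn1, had a log2 fold change of 0.40 (adjusted p = 0.0141). Cat, catalase, which breaks hydrogen peroxide down, rose too, with a log2 fold change of 0.51 ± 0.06 (SE, adjusted p = 0.00767).

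Nqo1, a quinone reductase widely used as a readout of NRF2, was at 39.6, 28.1, 27.2 and 26.1 CPM in HbHp and 9.33 to 13.9 CPM (median 12.4) in Hp. The lowest HbHp library was higher than all Hp libraries and than the untreated range of 7.38 to 14.8 CPM, and the log2 fold change was 1.33 ± 0.14 (SE, adjusted p = 0.00459). Osgin1, an oxidative stress induced growth inhibitor, was at 15.0, 14, 13.1 and 12.5 CPM against 4.36 to 7.04 CPM (median 6.15), again without overlap (log2 fold change 1.15 ± 0.13 SE, adjusted p = 0.00546). NADPH for these reactions comes largely from the pentose phosphate pathway, and its 4 members on the list all rose: G6pdx by a log2 fold change of 0.48 (adjusted p = 0.0336), Pgd by 0.69 (adjusted p = 0.0233), Taldo1 by 0.40 (adjusted p = 0.0323) and Tkt by 0.37 (adjusted p = 0.0102). Tkt kept its call in all 10 fits that left out 1 library, Pgd in 4, G6pdx in 2 and Taldo1 in 2. The detoxifying enzymes Aox1, Cbr3 and Ephx1 rose by 0.76, 0.59 and 0.52 on the log2 scale (adjusted p = 0.0156, 0.0257 and 0.00615). The 9 list members that did not pass were Hmox1, Fth1, Ftl1, Gstm1, Gstp1, Me1, Cbr1, Ugdh and Abcc1. Among them Cbr1 had a log2 fold change of 0.03 and Ugdh of -0.15, and Abcc1, which exports glutathione conjugates, had 0.61 (adjusted p = 0.0762).

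**Figure D2:**
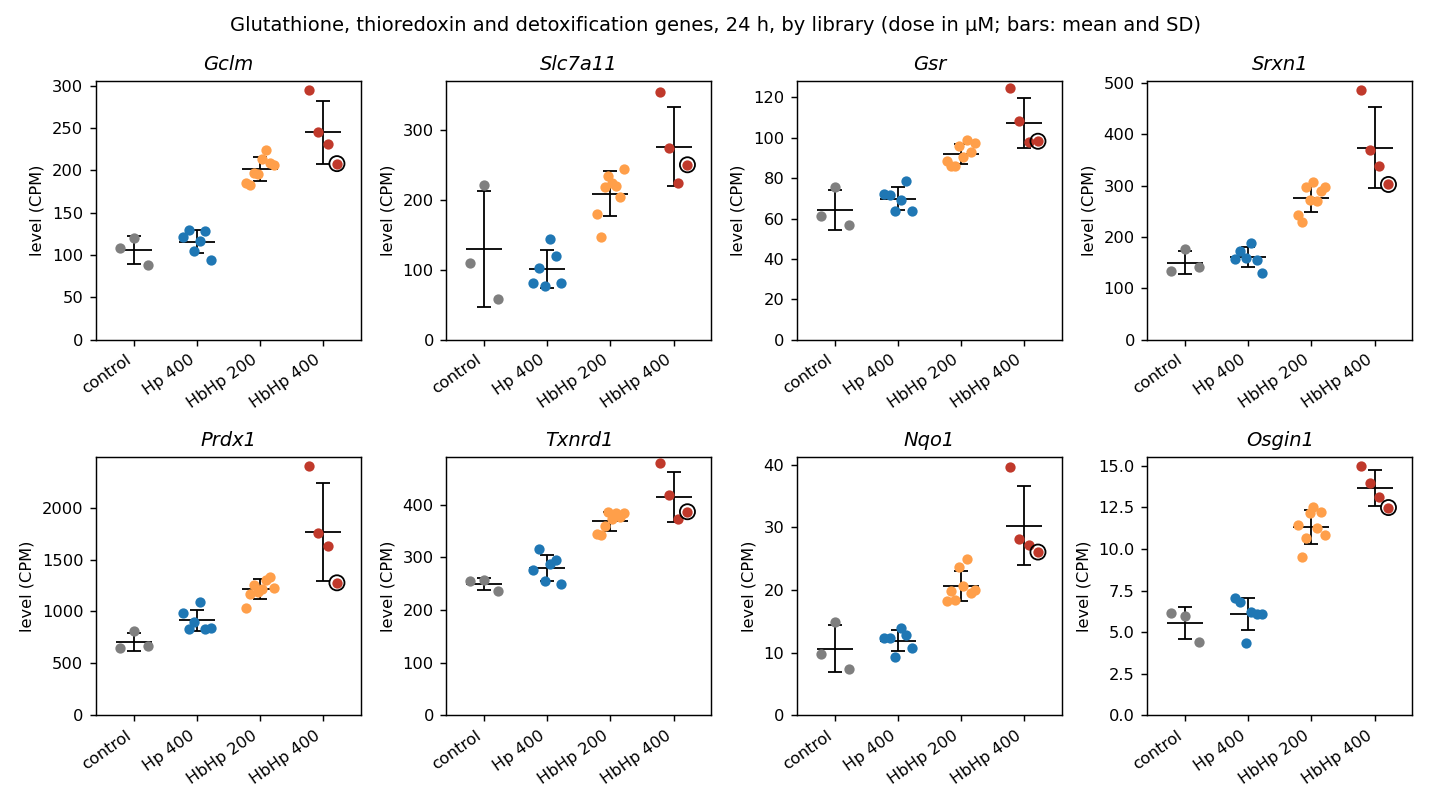
Levels (CPM, linear axes from 0) of Gclm, Slc7a11, Gsr, Srxn1, Prdx1, Txnrd1, Nqo1 and Osgin1 in untreated slices and slices given Hp 400 µM, HbHp 200 µM or HbHp 400 µM for 24 h. Points are libraries, bars the mean and SD, and a black ring marks HbHp 400 µM library M3, which lies above every Hp library in all 8 panels.

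NRF2 binds DNA with a small MAF partner at the antioxidant response element, whose core was searched as TGACNNNGC (N is any base) on both strands of the 250 bases before each gene's start, in RefSeq promoters of build GRCm38.p6. Of the 61 genes that passed, 51 had a window. The core was present in 11 of the 47 raised genes with a window (23.4%), in 5 of the 17 raised NRF2 targets with one (29.4%), and in 3112 of all 27025 genes with one (11.5%). The windows of those 5 genes are shown because they are the raised NRF2 targets in which these letters stand close to the start, at 134 bases upstream in Gclm, 121 in Gsta3, 133 in Prdx1, 92 in Txnrd1 (1 of its 3 windows) and 57 in G6pdx. Capitals mark the core, and each line runs 5′ to 3′ on the gene's strand, where the core may lie on the opposite strand.
Gclm (chr3:122245307-122245556, plus strand): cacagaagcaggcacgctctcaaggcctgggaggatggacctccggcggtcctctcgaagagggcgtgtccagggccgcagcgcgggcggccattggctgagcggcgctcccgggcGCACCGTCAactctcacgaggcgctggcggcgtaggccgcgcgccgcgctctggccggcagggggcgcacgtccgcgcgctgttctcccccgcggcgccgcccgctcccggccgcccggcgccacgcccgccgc
Gsta3 (chr1:21240335-21240584, plus strand): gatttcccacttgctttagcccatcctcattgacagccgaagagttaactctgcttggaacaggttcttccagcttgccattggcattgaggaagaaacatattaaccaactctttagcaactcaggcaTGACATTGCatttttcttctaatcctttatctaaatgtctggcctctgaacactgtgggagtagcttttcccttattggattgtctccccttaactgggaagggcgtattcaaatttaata
Prdx1 (chr4:116685349-116685598, plus strand): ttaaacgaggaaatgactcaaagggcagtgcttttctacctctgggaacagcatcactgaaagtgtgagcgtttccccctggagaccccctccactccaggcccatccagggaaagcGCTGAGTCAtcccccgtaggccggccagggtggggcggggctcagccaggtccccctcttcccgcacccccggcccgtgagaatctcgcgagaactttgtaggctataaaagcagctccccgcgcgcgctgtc
Txnrd1 (chr10:82858956-82859205, plus strand): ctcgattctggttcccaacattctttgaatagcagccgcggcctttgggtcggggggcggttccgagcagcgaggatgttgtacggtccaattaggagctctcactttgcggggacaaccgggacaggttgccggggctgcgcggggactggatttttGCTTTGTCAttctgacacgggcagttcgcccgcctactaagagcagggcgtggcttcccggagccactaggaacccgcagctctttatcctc
G6pdx (chrX:74428881-74429130, minus strand): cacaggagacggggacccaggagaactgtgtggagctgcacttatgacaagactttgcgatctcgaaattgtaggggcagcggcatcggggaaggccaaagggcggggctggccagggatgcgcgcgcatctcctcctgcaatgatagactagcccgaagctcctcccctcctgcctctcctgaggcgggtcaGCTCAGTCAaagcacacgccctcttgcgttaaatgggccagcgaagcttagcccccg

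The match is a description of letters and no binding was measured. The windows of Nqo1, Srxn1, Slc7a11 and Osgin1 held no match, which concerns only these 250 bases and only the letters searched. The Srxn1 window holds TGAGTCAGC, and the Osgin1 window holds it on the opposite strand. The searched core, with TGAC, does not cover that spelling. For ATF4, which raises amino acid transport genes under stress, the element TGATGNAAN stood in 1 of the 47 raised genes with a window (2.13%) and in 3.89% of all genes with one. That gene was Slc7a11, whose window held 2 matches. Of the 20 tested ATF4 targets, Slc7a11 and Slc3a2 rose and none fell (median log2 fold change 0.17; 2 raised in DESeq2). At an unadjusted p under 0.05, 9 were higher and none lower. Neither Sesn2 (0.21, adjusted p = 0.255) nor Atf5 (0.20, adjusted p = 0.309), both further targets, passed. Of 20 ER chaperones and unfolded protein response genes none passed in edgeR's test (median -0.04; 3 at an unadjusted p under 0.05 and 0 in DESeq2).

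Of 12 genes of heme breakdown and transport, 3 rose and none fell (median log2 fold change 0.21). Slc48a1, which carries heme from the lysosome into the cytosol, was at 463, 420.0, 413 and 428 CPM in HbHp and 332 to 357 CPM (median 344) in Hp. The groups were apart although the shift was small (log2 fold change 0.31 ± 0.05 SE, adjusted p = 0.0257), and the untreated libraries ran from 290.5 to 339 CPM. The call of Slc48a1 held in 3 of the 10 fits that left out 1 library. The exons of Slc48a1 overlap those of Hdac7, and whether the counting used strand is not given in the sources used here. Pgrmc1, a heme-binding membrane protein, was at 106, 101, 109 and 93.9 CPM against 77.1 to 88.9 CPM (median 80.1), with a log2 fold change of 0.34 ± 0.05 (SE, adjusted p = 0.0317), but 1 untreated library, at 102 CPM, lay above HbHp M3. Blvrb, a biliverdin and flavin reductase, was at 93.5, 70.4, 61.5 and 47.1 CPM against 33.3 to 39.8 CPM (median 39.4). All HbHp libraries were higher, F1 most and M3 least, with a log2 fold change of 0.85 ± 0.15 (SE, adjusted p = 0.0350). The call of Blvrb held in 1 of the 10 fits that left out 1 library.

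Hmox1, the heme oxygenase, missed the threshold. It stood at 6414, 5115, 5343 and 3602 CPM in HbHp libraries F1, F2, F3 and M3, and at 2656 to 3479 CPM (median 3276) in Hp, with a log2 fold change of 0.69 ± 0.14 (SE, adjusted p = 0.0740). The groups did not overlap, but M3 lay close to the highest Hp library. The Hp libraries were themselves above the untreated range of 1526 to 2458 CPM. Without M3, 5 members of the heme breakdown and transport list rose instead of 3. Of 11 tested genes of heme synthesis none passed in edgeR's test (median 0.01; 2 at an unadjusted p under 0.05 and 1 in DESeq2), with Alas1, the rate-limiting enzyme, at 0.10 (adjusted p = 0.743) and Fech, which inserts iron, at 0.15 (adjusted p = 0.406).

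The iron genes that passed were the exporter and the importer, in opposite directions. Slc40a1, ferroportin, which exports iron, was at 90.3, 74.4, 69.2 and 48.5 CPM in HbHp and 29.7 to 40.3 CPM (median 33.6) in Hp. The groups did not overlap (log2 fold change 1.03 ± 0.15 SE, adjusted p = 0.0151), and the untreated libraries were lower still, at 19.4 to 26 CPM. Tfrc, the transferrin receptor that brings iron in, was at 64.3, 62.7, 57.1 and 72.5 CPM in HbHp and 81.5 to 107 CPM (median 90.7) in Hp. All HbHp libraries were lower than all Hp libraries (log2 fold change -0.53 ± 0.09 SE, adjusted p = 0.0340), but they overlapped the untreated range of 59.3 to 92.0 CPM. The 2 calls were not equally firm. Slc40a1 kept its call in 9 of the 10 fits that left out 1 library, and Tfrc in 2. With the letter of the library code as a term, Slc40a1 kept its call and Tfrc lost it. Fth1 and Ftl1, the ferritin heavy and light chains, did not pass, at 0.48 (adjusted p = 0.140) and 0.36 (adjusted p = 0.294) on the log2 scale. The Fth1 values were 9897, 8212, 7778 and 6258 CPM in HbHp and 5197 to 6180.0 CPM (median 5750.1) in Hp, with no overlap, and those of Ftl1 overlapped, at 8097, 6792, 6564 and 5471 CPM and 4432 to 5804 CPM (median 5321). Of the 19 tested iron genes 1 rose and 1 fell (median 0.01). Slc11a2 and Slc39a8, which move divalent metals, were at -0.15 (adjusted p = 0.462) and -0.42 (adjusted p = 0.425).

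**Figure D3:**
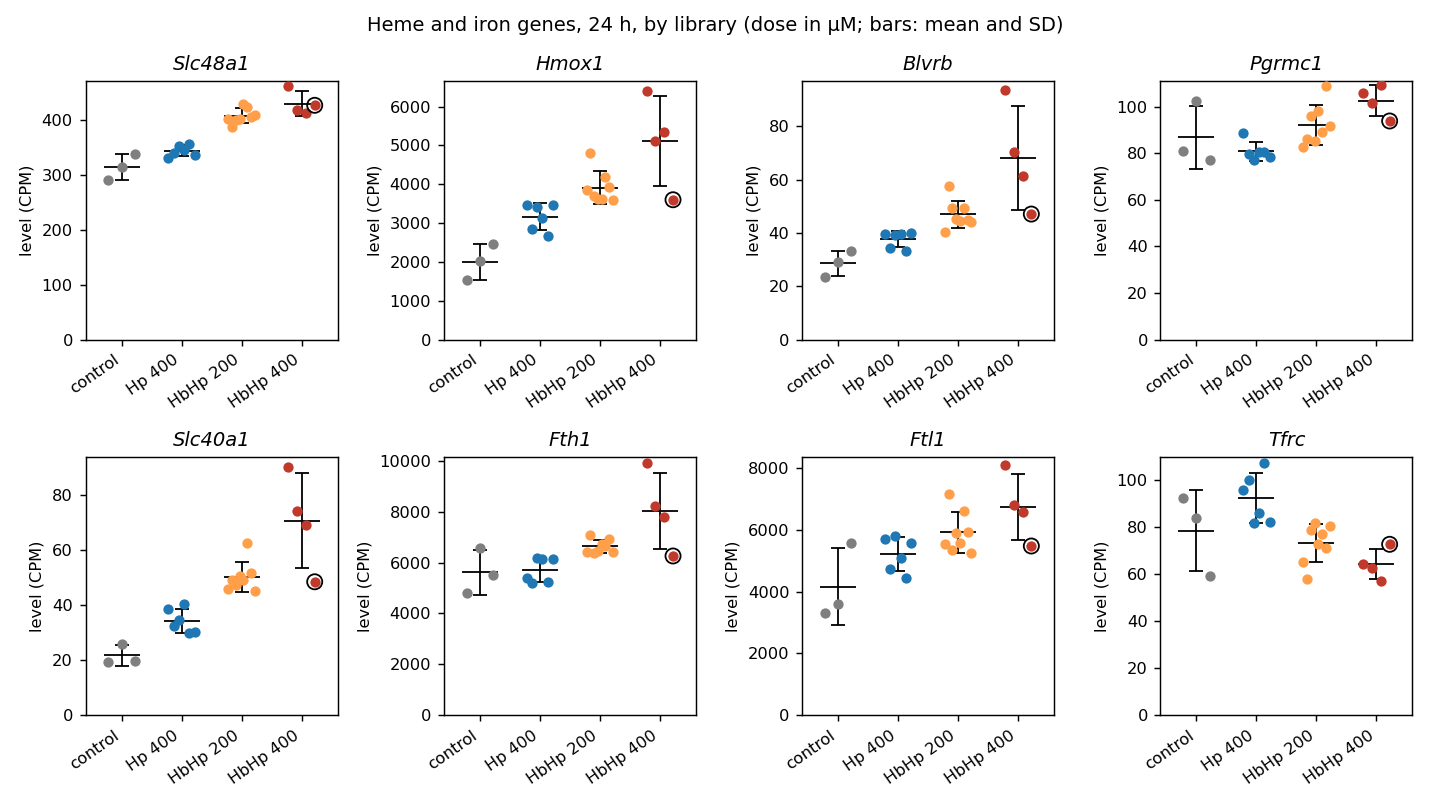
Levels (CPM, linear axes from 0) of Slc48a1, Hmox1, Blvrb, Pgrmc1, Slc40a1, Fth1, Ftl1 and Tfrc in the same groups of libraries at 24 h, with points as libraries, bars as the mean and SD, and a black ring on HbHp 400 µM library M3. Slc40a1 was at 48.5 to 90.3 CPM in HbHp 400 µM and 29.7 to 40.3 CPM in Hp 400 µM, and Tfrc at 57.1 to 72.5 CPM and 81.5 to 107 CPM.

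The receptors and scavengers that clear hemoglobin and heme did not pass in either direction. None of 11 tested members of that list was called by edgeR (median -0.23; 1 at an unadjusted p under 0.05 and 0 in DESeq2), and in none did the groups lie apart with HbHp higher. Cd163, the macrophage receptor for the complex, was at 2.80, 3.12, 1.97 and 2.39 CPM in HbHp and 1.79 to 4.00 CPM (median 3.22) in Hp, with the values mixed (log2 fold change -0.23 ± 0.24 SE, adjusted p = 0.795). The study describes mouse CD163 as binding the complex weakly beside the human receptor. It holds its findings compatible with entry of the complex without CD163. Lrp1, the receptor for heme-hemopexin, had a log2 fold change of 0.07 ± 0.10 (SE, adjusted p = 0.858). Endogenous mouse Hp mRNA had a log2 fold change of -0.63 ± 0.27 (SE, adjusted p = 0.462), and hemopexin, Hpx, was at -0.44 (adjusted p = 0.728). The globin genes Hba-a1, Hbb-bs and Hbb-bt had a count of 0 in all 10 libraries, but globins have near-identical copies whose shared reads counting can drop. The 7 erythroid markers summed to at most 0.177 CPM.

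Several genes outside the antioxidant lists had larger fold changes at low levels. Il19, a cytokine of the IL-10 family, was at 7.00, 3.59, 3.16 and 2.12 CPM in HbHp (61 to 180 reads) and 0.108 to 0.752 CPM (median 0.333) in Hp (3 to 22 reads). The groups did not overlap and the log2 fold change was 3.45 ± 0.45 (SE, adjusted p = 0.0102). It was the only 1 of 24 tested inflammatory activation genes that edgeR called (median -0.28), whereas DESeq2 called 4, 2 raised and 2 lowered, and 9 had an unadjusted p under 0.05. Ptgs2 (0.83, adjusted p = 0.415), Ccl12 (-0.95, adjusted p = 0.101) and Ccl4 (-0.65, adjusted p = 0.169) did not pass in edgeR's test, and neither did the receptors Gpr84 (-0.22, adjusted p = 0.743) and Tnfrsf1a (0.19, adjusted p = 0.158). Without M3, 3 genes of this list fell. Clec4d, a C-type lectin receptor of myeloid cells, was at 123, 96.5, 78.7 and 62.5 CPM against 39.5 to 60.3 CPM (median 45.4), with a log2 fold change of 0.93 ± 0.17 (SE, adjusted p = 0.0475). M3 lay just above the highest Hp library, and the call of Clec4d held in 2 of the 10 fits that left out 1 library.

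Among the early response factors, Fosb was at 11, 13.7, 9.14 and 4.34 CPM in HbHp and 1.03 to 2.60 CPM (median 1.5) in Hp, with a log2 fold change of 2.46 ± 0.34 (SE, adjusted p = 0.0135), and it was the only member of 20 called by edgeR, whereas DESeq2 called 10, all raised, and 12 were higher at an unadjusted p under 0.05. HbHp M3 was again the lowest of its group. The list's median log2 fold change was 0.44 and 19 of 20 values were above 0, with Egr1 at 0.78 (adjusted p = 0.0851), Fosl1 at 1.45 (adjusted p = 0.0870) and Jun at 0.39 (adjusted p = 0.0740). Without M3, 8 rose. In the cytosolic heat shock list 2 of 15 rose in edgeR's test and 6 in DESeq2, with 7 higher at an unadjusted p under 0.05. Hspa1b, an inducible HSP70, was at 78.3, 67.5, 53.9 and 25.5 CPM against 13.7 to 29.3 CPM (median 17.1), so that M3 lay inside the Hp range (log2 fold change 1.54 ± 0.29 SE, adjusted p = 0.0494). Its near-identical copy Hspa1a was at 1.51 (adjusted p = 0.0731), and reads cannot be assigned surely between them. Hsph1, an HSP110 co-chaperone, rose by 0.31 (adjusted p = 0.0350), and Dnajb1 missed the threshold at 0.63 (adjusted p = 0.0542).

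Of 8 tested genes of the aryl hydrocarbon receptor list, which is induced by planar aromatic ligands, 3 rose and none fell (median 0.39). Over all genes tested 0.365% rose. They were Cyp1a1, a cytochrome P450, Tiparp, a mono-ADP-ribosyltransferase that represses the receptor, and Nqo1, which is on the NRF2 list too. Cyp1a1 was at 0.584, 1.48, 0.914 and 0.555 CPM in HbHp (15 to 38 reads) and 0.0332 to 0.239 CPM (median 0.0950) in Hp (1 to 7 reads). The groups did not overlap at these low counts (log2 fold change 2.94 ± 0.50 SE, adjusted p = 0.0336). Adh7, an alcohol dehydrogenase that also oxidises retinol, was at 3.31, 2.57, 1.58 and 1.21 CPM against 0.227 to 0.611 CPM (median 0.498), with a log2 fold change of 2.29 ± 0.37 (SE, adjusted p = 0.0317), also without overlap. Dnmt3l, a cofactor of DNA methyltransferases, and Dmp1, a matrix protein, rose by 1.76 and 1.5 (adjusted p = 0.0340 and 0.0336). Of the 10 fits that left out 1 library, Cyp1a1, Tiparp, Adh7 and Dmp1 kept their calls in 2, and Dnmt3l in 1. None of these genes was called with the letter of the library code as a term.

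Sqstm1, an autophagy receptor, rose by 0.54 (adjusted p = 0.0340) as the only member of 20 lysosome and phagocytosis genes that edgeR called (1 in DESeq2). Of the genes on none of the lists, Gabarapl1, a member of the ATG8 family, rose by 0.37 (adjusted p = 0.0257) and Mafg, a small MAF partner of NRF2, by 0.36 (adjusted p = 0.0446). Gadd45b and Gadd45a, stress-inducible growth arrest genes, rose by 1.10 and 0.55 (adjusted p = 0.0336 and 0.0317), and the phosphatase Dusp4 by 0.69 (adjusted p = 0.0490). Others were Esd, Cyb5a, Tnfrsf12a, Ypel5, Phlda1, Map2k3, Ikbkg, Lrrfip2, Chpf2, Zdhhc18, Nop9, Stk40, Rit1 and Mkrn1, with log2 fold changes from 0.24 (Mkrn1) to 0.71 (Esd, S-formylglutathione hydrolase). Except for genes that the naming rule covers, these were named because they passed. Exons of 19 of the 61 overlap another gene, G6pdx and Ikbkg each other, Sqstm1 with Mrnip and Gclm with Gm17494 among them.

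Of the 5 lowered genes, Tfrc was on the iron list and the others were on none. Pi15, a peptidase inhibitor, was at 3.15, 3.74, 3.37 and 3.09 CPM in HbHp and 6.03 to 17.3 CPM (median 9.19) in Hp. The groups did not overlap (log2 fold change -1.62 ± 0.27 SE, adjusted p = 0.0324), and the untreated libraries ran from 5.05 to 17.3 CPM. Ifi207, an interferon-inducible PYHIN gene, fell by 0.56 on the log2 scale (adjusted p = 0.0359), Arhgef19 by 0.38 (adjusted p = 0.0336), and Rin2, a RAB5 exchange factor, by 0.32 (adjusted p = 0.0408). In all 5, every HbHp library was below every Hp library, which held for 0.802% of all genes tested. The 5 were picked as low in HbHp, so this adds no support of its own. With the letter of the library code as a term, 0 lowered genes were called. Of the 10 fits that left out 1 library, Pi15 kept its call in 3, Ifi207 and Tfrc in 2, and Arhgef19 and Rin2 in 1. None of 21 interferon-stimulated genes on the list passed in edgeR's test (median -0.35; 4 at an unadjusted p under 0.05 and 0 in DESeq2).

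**Figure D4:**
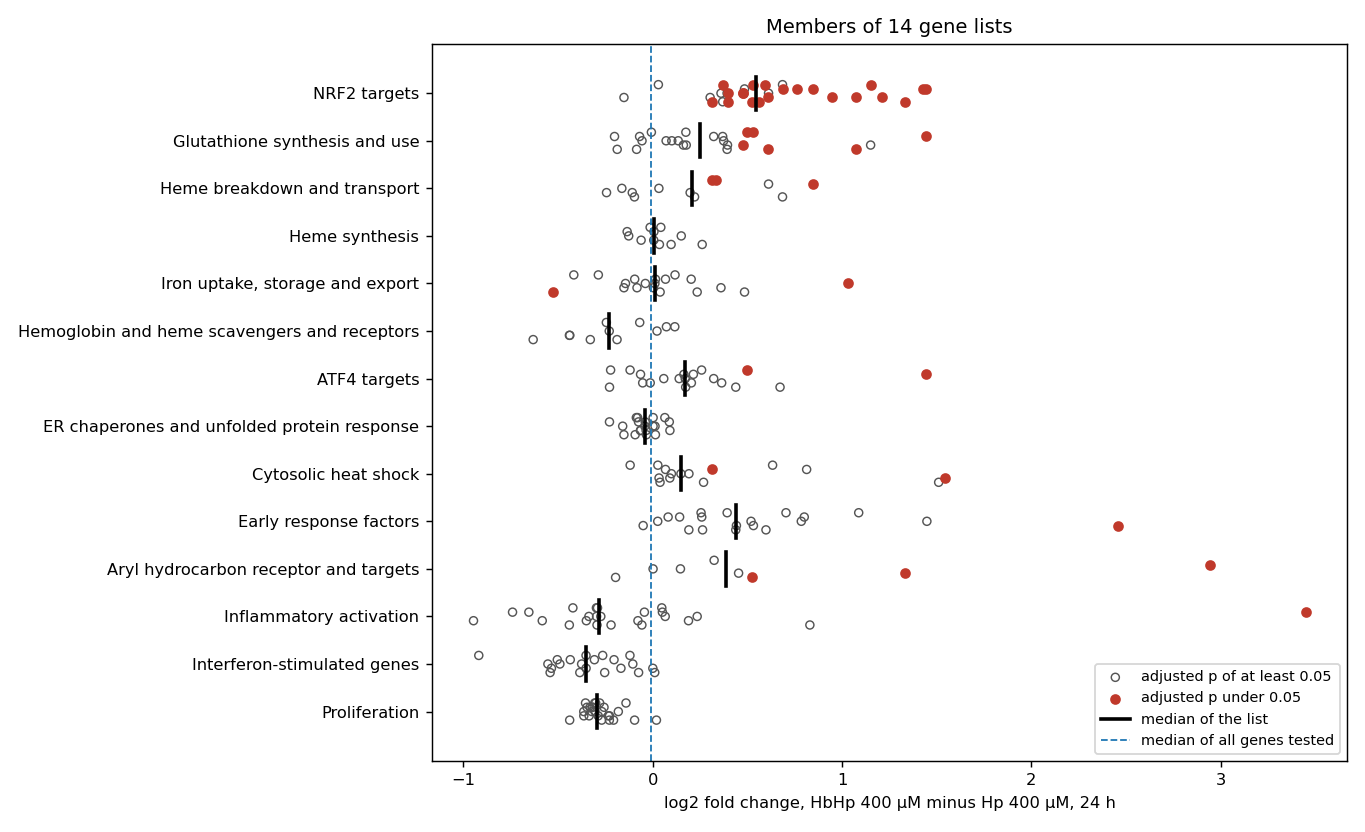
Log2 fold changes of HbHp against Hp (400 µM, 24 h) for the tested members of 14 gene lists, 1 point a gene, with members that passed the test in colour and the list median as a bar. NRF2 targets have a median of 0.54 and 21 of 30 members passed, against medians of 0.01 for heme synthesis and iron genes.

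Markers of neurons and glia were present in both groups, and no marker of any cell type list passed in edgeR's test. Summed neuron markers were 714 to 1356 CPM in HbHp and 799 to 1019 CPM in Hp (23 genes, median log2 fold change 0.23; 3 at an unadjusted p under 0.05 and 1 raised in DESeq2), and microglia markers 2219 to 4033 and 2635 to 4287 CPM (17 genes, median -0.12; 3 unadjusted, 0 in DESeq2). Oligodendrocyte markers summed to 35586 to 37530.0 and 29737 to 42724.5 CPM (14 genes, median -0.04; 0 unadjusted, 0 in DESeq2). In bulk RNA fewer cells of a type and less RNA per cell cannot be told apart. Choroid plexus markers were 187 to 2209 CPM in HbHp and 169.6 to 1998 CPM in Hp (13 genes, median 0.54; 0 unadjusted, 0 in DESeq2), and 13 hypothalamus markers had a median of 1.06 (4 unadjusted, 1 in DESeq2) with sums of 47.3 to 162 and 49.4 to 85 CPM, in both cases with HbHp M3 lowest of its group. HbHp F1, with the highest choroid plexus sum, was also the highest in 47 of the 56 raised genes, and M3 was the lowest in 40. The part of these marker differences in the raised genes was not tested. Blood cells were scarce: neutrophil and monocyte markers summed to at most 9.24 CPM, with S100a9 and Retnlg at 0.

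Proliferation genes did not pass with all libraries (0 of 26 in edgeR's test, 2 lowered in DESeq2, 17 at an unadjusted p under 0.05, median -0.29). Their sums were 898, 939.8 and 887 CPM in HbHp F1, F2 and F3 and 1237 CPM in M3, and 1097 to 1254 CPM in Hp. So 3 HbHp libraries lay below all Hp libraries and 1 within their range. Without M3, 16 of the list fell. Mcm5 and Mcm6, replication licensing factors, were at -0.36 and -0.32 with all 10 libraries (adjusted p = 0.158 and 0.161).

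At 48 h the same agents at 400 µM were measured in 5 HbHp and 6 Hp other libraries of the same round. Of 15664 genes 700 passed (4.47%), 361 raised (2.30%) and 339 lowered (2.16%). These calls come from 1 fit of the libraries of both times, whereas the 61 calls at 24 h come from the 10 libraries alone. The counts at the 2 times are therefore not on an equal footing. For the 24 h comparison itself, a wider fit of 29 libraries called 211 genes. Among the 56 genes raised at 24 h, 51 were raised at 48 h, which is 91.1% of the 24 h genes and 14.1% of the 48 h genes, and 4 of the 5 lowered at 24 h were lowered at 48 h (80% and 1.18%). All 61 had the same sign. NRF2 targets raised numbered 26 at 48 h (median 0.62). Hmox1 passed there (log2 fold change 0.63 ± 0.15 SE, adjusted p = 0.0197) with a value no larger than at 24 h (0.69 ± 0.14 SE, adjusted p = 0.0740). Slc7a11, Gclm and Nqo1 had log2 fold changes of 1.78, 1.19 and 1.59 at 48 h and of 1.44, 1.07 and 1.33 at 24 h. The genes that did not pass at 48 h were Fosb (0.91, adjusted p = 0.0727), Hspa1b (0.83, adjusted p = 0.103), Dmp1 (0.36, adjusted p = 0.666), Gadd45a (adjusted p = 0.145), Mkrn1 (adjusted p = 0.0750) and Tfrc (-0.26, adjusted p = 0.0753).

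Several lists with no called member or 1 at 24 h had more at 48 h, where the fit held more libraries. Inflammatory activation genes had 3 raised and 2 lowered (of 24, median 0.37, against -0.28 at 24 h). Among them were Ptgs2 (1.35, adjusted p = 0.00740) and Ccl12 (-1.78, adjusted p = 2.58e-06). Early response factors had 7 raised, p53 targets 7 raised, oligodendrocyte markers 5 lowered (of 14, median -0.33), border-associated macrophage markers 3 lowered and 1 raised (of 11, median -0.46), astrocyte markers 2 lowered (of 14, median -0.20), microglia markers 4 lowered (of 17, median -0.51, P2ry12 at -1.05 with an adjusted p of 4.39e-04), proliferation genes 6 lowered and ER chaperones 6 lowered. A gene called at 1 time only is not thereby shown to differ between times. The test of that difference, the treatment effect at 48 h minus that at 24 h, called 0 of 15664 genes in edgeR and 0 in DESeq2, with 704 at an unadjusted p under 0.05 (4.49%).

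**Figure D5:**
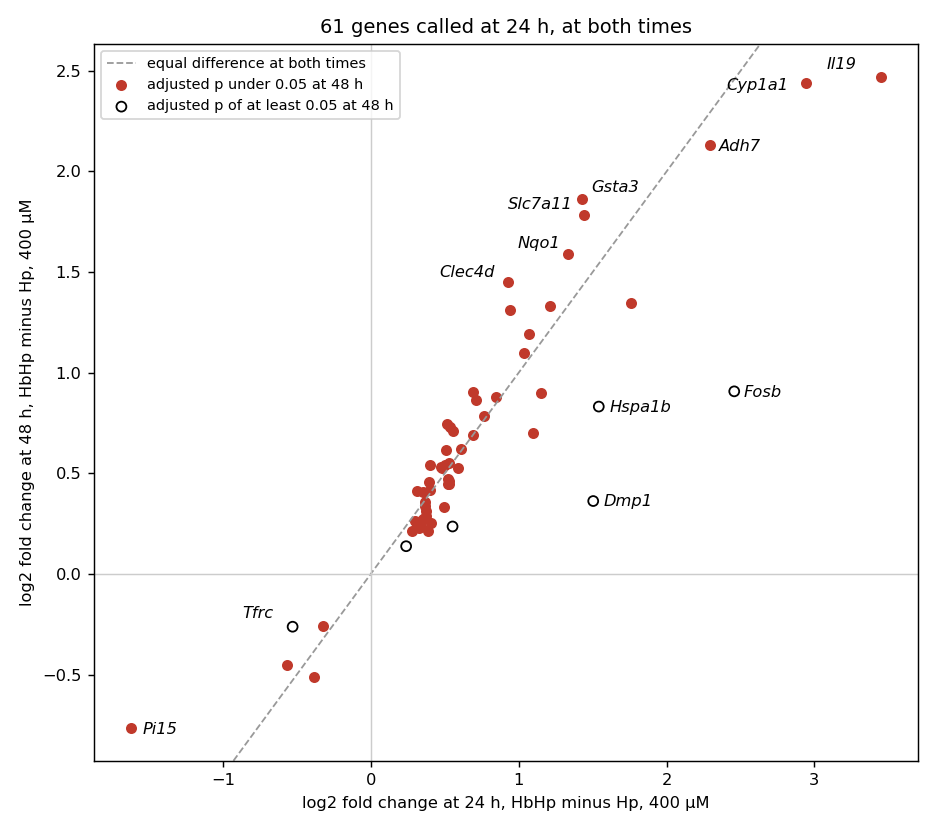
Log2 fold change of HbHp against Hp at 24 h (x axis) and at 48 h (y axis), both at 400 µM, for the 61 genes called at 24 h, 1 point a gene. All 61 lie in the quadrant of their own sign, with Il19 at 3.45 and 2.47 and Slc7a11 at 1.44 and 1.78.

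HbHp was also given at 200 µM for 24 h (8 libraries). Between 400 µM and 200 µM edgeR called 0 of 15388 genes, with 1860 at an unadjusted p under 0.05 (12.1%), and DESeq2 called 139. Without HbHp 400 µM library M3, edgeR called 1506 (836 raised and 670 lowered), so the count for dose turned on 1 library. That library was the only one of the 400 µM group with the letter M. Gclm was at 183 to 224 CPM at 200 µM and at 208 to 295 CPM at 400 µM (log2 difference 400 minus 200 0.28 ± 0.08, SE), and Slc40a1 at 45.1 to 62.7 CPM and 48.5 to 90.3 CPM (0.49 ± 0.12, SE). The ranges overlapped in both genes. Set against the same 6 Hp 400 µM libraries, HbHp at 200 µM gave 55 called genes of 15218 (42 raised, 0.276%, and 13 lowered, 0.0854%). This comparison shares its Hp libraries with the one at 400 µM, and its agents differ in dose. Side by side, the log2 fold changes at 200 and 400 µM were 0.80 and 1.07 for Gclm, 0.79 and 1.33 for Nqo1, 1.05 and 1.44 for Slc7a11, and -0.34 and -0.53 for Tfrc.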

How the data were processed

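Raw read counts per gene (25528 genes, 1 table a library) were deposited by the authors. Per the labels, RNA was extracted with the Lexogen SPLIT kit, libraries were prepared with Illumina TruSeq mRNA, and reads were counted with featureCounts on GRCm39. The aligner, versions and use of strand are not given in the sources used here. Of 188 libraries, 21 with conflicting labels were assigned to no group. Levels are CPM, counts scaled to library size with TMM factors over 32 libraries. Groups were compared with edgeR 4.0.16 (R 4.3.3; TMM, filterByExpr, quasi-likelihood test, no covariate) and Benjamini-Hochberg adjustment over all genes tested, with a threshold of 0.05. The study's methods name DESeq2, which was run as an alternative (1.42.0), beside other scaling, filters, covariates, a wider fit and leaving out each library. On simulated counts for the comparison at 24 h (15341 genes), 38% of simulated log2 changes of 0.5 and 73% of those of 1.0 were recovered. The simulation gave every library the same mean profile, without library-wide shifts such as that of HbHp M3, so recovery in these data may differ. Replicates differed beyond counting noise (chi-square per degree of freedom 8.53 to 66.4), so none was counted as a duplicate, and the letter of the library code matched the level of Y-linked genes in 32 of 32 libraries. Genes named are those the study discusses, the 10 largest changes in each direction with a mean of at least 1 CPM, up to 4 smallest p-values a list, members of 5 heme, iron and NRF2 lists, and further genes that passed, of which 1 is not reported here. The members and lists were chosen with earlier results of these data known. Promoter windows and exon overlaps come from annotation of GRCm38, another build than that of the counts.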

Additional observations from a re-analysis of the deposited data

Results flagged for a closer look

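For 110 genes named in the text, the highest or lowest library of each group was set against the rest of its group with Dixon's criterion. It was exceeded in 17 of 220 gene and group pairs (7.73%), where chance gives about 1 in 20. In the HbHp group, F1 was far above the others for Nqo1 (39.6 CPM, others 26.1 to 28.1 CPM) and Dmp1 (2.72 CPM, others 1.67 to 1.83 CPM). HbHp M3 was far below the others for the receptors Lrp1 (1097 CPM, others 1423 to 1459 CPM) and Stab1 (222 CPM, others 308 to 309.8 CPM), and far above them for the metallothionein Mt3 (289 CPM, others 187 to 199.5 CPM). HbHp F3 was lowest for Abcb6 (24.8 CPM, others 25.9 to 26.1 CPM), a small distance in CPM.

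In the Hp group, F1 was lowest for Slc3a2 (214 CPM, others 228 to 235 CPM) and highest for Pgrmc1 (88.9 CPM, others 77.1 to 80.6 CPM) and P2ry12 (13.2 CPM, others 7.32 to 9.40 CPM). Hp F3 was lowest for Osgin1 (4.36 CPM, others 6.08 to 7.04 CPM) and highest for the hypothalamic genes Trh (1.34 CPM, others 0.199 to 0.434 CPM) and Otp (0.529 CPM, others 0 to 0.109 CPM). Hp M1 was highest for Ptgs2 (14.8 CPM, others 6.11 to 8.58 CPM) and Fosl1 (7.93 CPM, others 3.67 to 4.92 CPM), Hp M2 for Gsta4 (35.8 CPM, others 30.7 to 31.7 CPM) and Tkt (271.0 CPM, others 244 to 253 CPM), and Hp M3 for Pomc (1.59 CPM, others 0.575 to 0.855 CPM). No gene examined had its groups apart in opposite directions at 24 h and 48 h.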

How the results depend on the processing

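Against 61 changed genes (56 raised, 5 lowered), DESeq2 called 258 (184 and 74) and the wider fit of 29 libraries 211 (173 and 38). With the letter of the library code as a term, 22 were called (22 and 0), 13 of them NRF2 targets. With the library code as a replicate block, 2 were called (2 and 0), both NRF2 targets, Slc7a11 and Gclm. Whether the codes pair the samples is not known. Of the 4 HbHp libraries, 1 (F3) deviated most like the Hp library of its own code (correlations from -0.47 to 0.29). This check compares deviations over all genes, so it cannot exclude that equal codes mark paired samples. Leaving out 1 library gave 11 to 280 changed genes, 11 to 151 raised, 0 to 129 lowered, and 8 to 24 raised NRF2 targets. RLE scaling called 68, no filter 67, and at least 10 counts in every library 61 (58 shared). For dose, DESeq2 called 139 genes and leaving out 1 library gave 0 to 1506, and treatment by time gave 0 under every alternative run. The median log2 fold change of lysosome genes turned to -0.0392 with the letter term and -0.0711 with the block, and ran from -0.0510 to 0.0875 when leaving out 1 library, where that of iron genes ran from -0.0259 to 0.0195. Of the 61 genes, 38 kept their call in 3 or fewer of the 10 fits that left out 1 library. The causes of these shifts were not tested.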

Other observations

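In 4 further pathways edgeR's test called no gene at 24 h. The medians of the log2 fold changes were 0.02 for 24 sterol and fatty acid synthesis genes, -0.03 for 8 metallothionein and zinc genes, 0.17 for 15 HIF targets and 0.10 for 16 p53 targets. At an unadjusted p under 0.05 these lists had 4, 0, 2 and 3 members, and DESeq2 called 1, 0, 2 and 1. Slc2a1, the main glucose transporter of the blood-brain barrier and a HIF target, was at 156, 129, 123 and 104 CPM in HbHp and 82.8 to 106 CPM (median 91.4) in Hp (log2 fold change 0.46, adjusted p = 0.113), and passed at 48 h (0.47, adjusted p = 0.00178). Eda2r, a p53-induced death receptor, was at 0.43 (adjusted p = 0.221) at 24 h and passed at 48 h (0.72, adjusted p = 6.22e-04). Hsd17b7, a cholesterol synthesis enzyme, was at 0.29 (adjusted p = 0.169). Of 14 ferroptosis and lipid peroxidation regulators, Slc7a11 rose and Tfrc fell (median 0.07).

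Further cell type and region lists had no called member in edgeR's test: astrocytes (14 genes, median log2 fold change -0.06), oligodendrocyte precursors (8, -0.15), border-associated macrophages (11, -0.12), endothelial cells (14, -0.17), pericytes and smooth muscle (9, 0.30), meningeal fibroblasts (10, 0.22), thalamus (11, 0.13), striatum (12, -0.23) and cortex and hippocampus (12, -0.02). In the order named, 2, 3, 3, 3, 1, 2, 2, 1 and 2 of these genes had an unadjusted p under 0.05, and DESeq2 called 1 endothelial and 1 cortex and hippocampus gene. Among hypothalamic peptides, Pomc was at 0.272, 5.93, 4.67 and 0.555 CPM in HbHp and 0.575 to 1.59 CPM (median 0.698) in Hp (log2 fold change 1.75, adjusted p = 0.427), and Cartpt at 2.41, 3.82, 3.62 and 0.62 CPM and 0.233 to 1.30 CPM (median 0.938) (1.59, adjusted p = 0.293). Nptx1, a neuronal pentraxin, had a log2 fold change of 0.85 (adjusted p = 0.140), and Nefm, a neurofilament, of 0.96 (adjusted p = 0.0882). Without HbHp M3, 2 hypothalamus markers and 1 neuron marker rose.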
